A study of Homo sapiens with 17 samples.

Results

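The regions described here are 755 stretches of the genome where A549 cells, an established human lung carcinoma line, carried both FOXA1 and FOSL2 and where FOXA1 was no longer called after an AP-1 inhibitor was induced. They were chosen by peak calls in chromatin immunoprecipitation with sequencing (ChIP-seq). FOXA1 peaks from 4 libraries were merged wherever they overlapped by 1 bp on chromosomes 1 to 22 and X, which gave 27825 FOXA1 regions. A region was selected when both uninduced libraries called it, neither induced library did, and it shared 1 bp or more with a FOSL2 region that both uninduced FOSL2 libraries called. Such regions are called lost regions with FOSL2 below. With or without FOSL2, 6.73% of the 27825 regions had FOXA1 calls in the 2 uninduced libraries and in no induced one, and these made up 31.1% of the 6012 regions that both uninduced libraries called. Lost means here that no peak was called, which is not a measured absence of binding.

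The A-Fos Dox and A-Fos No Dox samples came from A549 cells that carried an A-Fos construct integrated with piggyBac. A-Fos is a dominant-negative form of Fos. The Dox samples were fixed after 48 h with 1 µg/mL doxycycline, and the No Dox samples were not treated. FOXA1 and FOSL2 were profiled in both states, with 2 libraries for each factor and state. WT A549 cells had neither construct nor treatment and were profiled for FOXA1, H3K9me3 and H3K27me3, again with 2 libraries for each. Whether the A-Fos line is 1 clone is not given in the sources used here, and no doxycycline-treated cells without A-Fos were analysed, so the effects of A-Fos and of doxycycline cannot be told apart.

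FOXA1 is a forkhead protein that can bind its sites in closed chromatin and is active in lung, liver and prostate epithelium. FOSL2, also called Fra-2, is a Fos family subunit of AP-1, a dimer of Fos and Jun family proteins that binds short palindromic DNA sites at many enhancers. A-Fos pairs with Jun proteins through its leucine zipper and carries an acidic stretch in place of the DNA-binding region, so that the dimer does not bind DNA.

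The stretches printed here show the bases around the FOSL2 summits, and where the window reached them the FOXA1 summits, in lost regions with FOSL2 that reached an annotated gene start. The sequences are RefSeq promoter windows of GRCh38.p14, which run from 250 bases before to 50 bases after a gene start. Each stretch spans the summits with up to 50 bases on either side, ends at the window's edge or at most 10 bases past the gene start, and is read 5′ to 3′ on the strand of the gene. Capitals mark matches to the AP-1 site TGANTCA or to the forkhead sites TGTTTAC and TATTTAC, searched on both strands, so that a forkhead match on the opposite strand reads as the reverse complement. The 6 lost regions at protein-coding genes with both FOSL2 summits in the window and the one at the long noncoding RNA gene LINC00460 were TMEM127 (chr2:96260586-96260657, minus strand), TGFBR2 (chr3:30606351-30606610, plus strand), ADGRF4 (chr6:47698409-47698589, plus strand), KIAA1217 (chr10:24466387-24466488, plus strand), C10orf90 (chr10:126521432-126521575, minus strand), MBNL2 (chr13:97141709-97141843, plus strand) and LINC00460 (chr13:106376460-106376573, plus strand). The stretch at the noncoding gene HMGA2-AS2 (chr12:65948882-65948957, minus strand) is the one of these regions without an AP-1 match. At TMEM127 and HMGA2-AS2 both FOXA1 summits lay outside the window. The stretches were chosen after their values were seen.
TMEM127: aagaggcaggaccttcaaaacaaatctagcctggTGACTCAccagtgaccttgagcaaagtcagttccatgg
TGFBR2: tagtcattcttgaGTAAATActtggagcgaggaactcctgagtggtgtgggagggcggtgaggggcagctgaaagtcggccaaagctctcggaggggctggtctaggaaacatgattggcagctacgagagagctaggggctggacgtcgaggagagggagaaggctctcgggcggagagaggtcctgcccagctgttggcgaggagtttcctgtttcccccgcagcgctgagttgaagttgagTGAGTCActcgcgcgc
ADGRF4: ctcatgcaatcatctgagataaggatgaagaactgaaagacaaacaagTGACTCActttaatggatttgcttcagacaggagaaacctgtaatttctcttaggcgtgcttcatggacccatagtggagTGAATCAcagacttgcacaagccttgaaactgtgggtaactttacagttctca
KIAA1217: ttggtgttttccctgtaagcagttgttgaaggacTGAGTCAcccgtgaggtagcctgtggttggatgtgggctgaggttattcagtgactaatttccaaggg
C10orf90: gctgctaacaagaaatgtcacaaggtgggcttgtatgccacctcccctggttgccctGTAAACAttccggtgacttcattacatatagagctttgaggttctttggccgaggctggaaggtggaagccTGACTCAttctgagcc
MBNL2: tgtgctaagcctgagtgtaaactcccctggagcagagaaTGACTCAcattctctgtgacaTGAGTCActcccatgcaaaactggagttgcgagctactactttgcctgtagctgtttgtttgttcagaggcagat
LINC00460: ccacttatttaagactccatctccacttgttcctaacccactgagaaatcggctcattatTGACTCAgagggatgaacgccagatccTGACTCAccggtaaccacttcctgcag
HMGA2-AS2: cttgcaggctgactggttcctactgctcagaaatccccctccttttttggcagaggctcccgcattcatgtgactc

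For contrast, 4 stretches taken in the same way come from regions with FOSL2 where FOXA1 was called in all 4 A-Fos libraries, called kept regions with FOSL2 below. They show a forkhead site with an AP-1 site close by, a forkhead site further from an AP-1 site, a forkhead site alone and an AP-1 site alone. They were picked to show these arrangements, and their make-up is not that of the class, whose counts follow. They lie at LOC105375284 near EGFR (chr7:54996124-54996227, minus strand), at LOC105370777 (chr15:38868425-38868583, minus strand), at LOC105375170 (chr7:16990015-16990161, plus strand) and at LOC105376206 (chr9:107504963-107505079, plus strand), again in GRCh38.p14 and with the same use of capitals.
LOC105375284: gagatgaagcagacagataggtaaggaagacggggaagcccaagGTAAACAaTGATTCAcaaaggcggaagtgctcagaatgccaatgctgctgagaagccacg
LOC105370777: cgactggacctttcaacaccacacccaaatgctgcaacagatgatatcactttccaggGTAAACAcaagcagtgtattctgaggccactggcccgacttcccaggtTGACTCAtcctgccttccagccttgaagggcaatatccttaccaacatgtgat
LOC105375170: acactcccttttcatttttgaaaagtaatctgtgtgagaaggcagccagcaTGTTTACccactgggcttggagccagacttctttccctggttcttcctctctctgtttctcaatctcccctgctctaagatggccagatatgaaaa
LOC105376206: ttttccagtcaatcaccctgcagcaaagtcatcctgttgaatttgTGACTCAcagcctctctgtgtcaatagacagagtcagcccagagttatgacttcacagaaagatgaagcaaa

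At the TGFBR2 start, which encodes the type II receptor of TGF-beta, the middle of the AP-1 site lay 1 bp from the mean FOSL2 summit, and the FOXA1 summit lay 229 bp away, beside the forkhead match. At ADGRF4, an adhesion G protein-coupled receptor gene, the window held 2 AP-1 sites, and 1 of them lay 1 bp from the FOSL2 summit and another 1 bp from the FOXA1 summit. At KIAA1217 the summits of the factors were 1 bp apart, 13 bp and 14 bp from the only AP-1 site, and no forkhead match was in the window. At MBNL2, a muscleblind splicing regulator gene, the nearest of 2 AP-1 sites was 8 bp from the FOSL2 summit. At TMEM127, whose product restrains mTOR signalling, the site lay 13 bp from the FOSL2 summit, at LINC00460 it lay 7 bp away, and at C10orf90 it lay 29 bp away. In each of the 7 regions other than HMGA2-AS2 the AP-1 site was thus within 50 bp of the FOSL2 summit.

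Of 12 lost regions with FOSL2 that overlapped a promoter window, 10 had both FOSL2 summits inside one. An AP-1 site was found in the window in 9 of these 10, at 1 to 31 bp from the FOSL2 summit with a median of 8 bp. Of the 18 kept regions with FOSL2 and both FOSL2 summits inside a window, 14 had an AP-1 site, at 1 to 135 bp with a median of 18 bp. A forkhead site was in the window in 2 of the 10 lost regions with FOSL2 and in 8 of the 18 kept ones. Counted over windows, TGANTCA was in 12 of 15 windows (80%) at lost regions with FOSL2, in 20 of 34 (58.8%) at kept regions with FOSL2, in 7 of 13 (53.8%) at lost regions without FOSL2, in 69% of the 310 windows at any FOSL2 region called in both No Dox libraries, and in 7.68% of all 34961 windows. Either forkhead site was in 3 of 15 windows (20%) at lost regions with FOSL2, in 12 of 34 (35.3%) at kept ones, in 2 of 13 (15.4%) at lost regions without FOSL2, in 41.1% of the 190 windows at any FOXA1 region called in both No Dox libraries, and in 5.97% of all windows. Some windows overlap each other, so the 15 windows stand for 12 regions. These are small counts at gene starts, where few of these regions lie, and no test was made. TGACGTCA, the cyclic AMP response element, was in 0 of 15 windows at lost regions with FOSL2 and in 1.85% of all windows. GGAATG, a TEAD motif, was in 33.3% of the 15, in 29.4% of those at kept regions with FOSL2 and in 14% of all windows.

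The A-Fos FOXA1 lists held 11112 and 15065 peaks with doxycycline and 7633 and 13247 without it, and the FOSL2 lists held 1854 and 5274 peaks with doxycycline and 45586 and 14842 without it. The WT FOXA1 lists held 49448 and 80318 peaks. Peak lists give no read numbers, so depth is unknown and list lengths may differ through it. The median fold enrichment over background, a value deposited by the authors with each peak, was 4.48 and 4.75 in the Dox FOXA1 lists and 5.74 and 6.34 in the No Dox FOXA1 lists. It was 3.51 in each Dox FOSL2 list, and 6.4 and 4.5 in the No Dox FOSL2 lists. The 2 libraries of a group are named biological replicates in the labels. Because the regions were chosen by calls in these lists, their values in them are a description. Intervals given for shares are 95% exact binomial intervals, which cover counting over regions only, and regions are not replicates.

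Of the 1703 FOXA1 regions with FOSL2 called in both No Dox libraries, 755 were called in neither Dox library (44.3%, interval 42% to 46.7%), 168 in the first alone (9.86%), 115 in the second alone (6.75%) and 665 in both (39%). Of the 4309 regions without FOSL2, 1117 were called in neither Dox library (25.9%, interval 24.6% to 27.3%) and 2540 in both (58.9%). The 31.1% of all 6012 regions that were lost lies between these shares. The number of lost regions with FOSL2 depended on 2 libraries. It was 1683 without the first No Dox FOXA1 library and 1462 without the second No Dox FOSL2 library, each the shorter list of its pair. Without the first No Dox FOXA1 library, 60.1% of regions with FOSL2 and 44.8% of regions without FOSL2 were lost. Without the second No Dox FOXA1 library the shares were 47% and 38.9%, and without the second No Dox FOSL2 library they were 41.3% and 16.6%. The share was higher with FOSL2 in each of the 15 settings tried. In 2 of them a Dox FOSL2 library was left out, which enters only the merging of FOSL2 regions, and the shares were unchanged.

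FOSL2 peaks themselves were nearly absent at these regions after induction. A FOSL2 peak was called at 8 of the 755 (1.06%) in the first Dox FOSL2 library and at 5 (0.662%) in the second, and at 1 in both. Among all 10191 FOSL2 regions called in both No Dox libraries, 0.579% were called in the first Dox library and 1.1% in the second. Kept regions with FOSL2 had FOSL2 peaks at 9 (1.35%) and 11 (1.65%) of 665. Lost and kept regions with FOSL2 alike therefore had few FOSL2 calls under doxycycline, with overlapping intervals of 0.459% to 2.08% against 0.621% to 2.55% in the first library and 0.215% to 1.54% against 0.829% to 2.94% in the second.

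**Figure D1:**
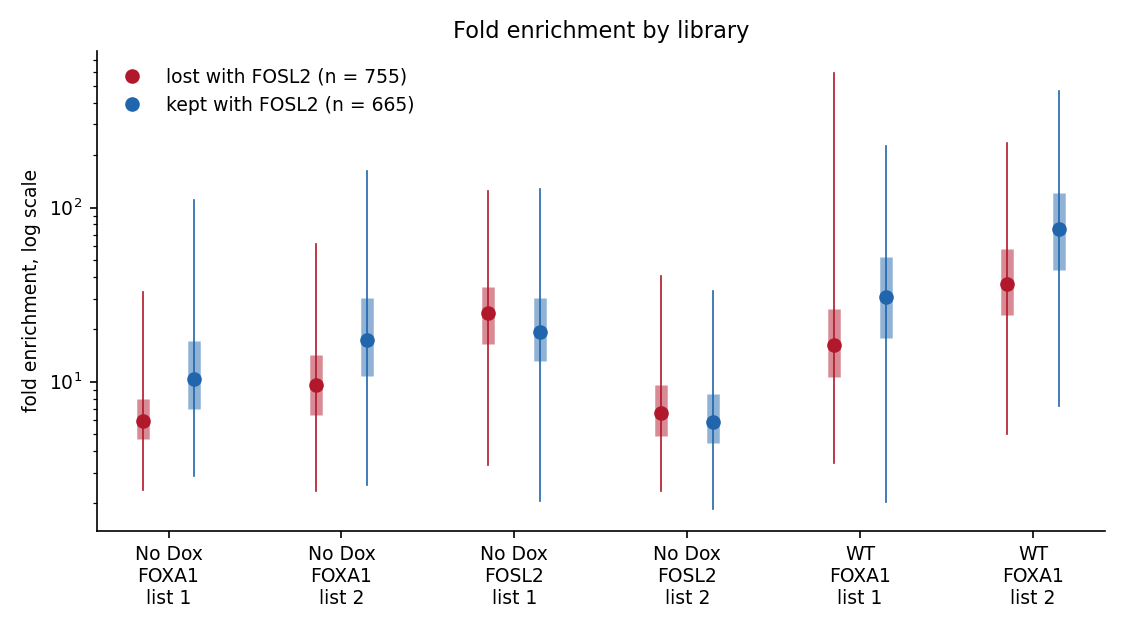
Fold enrichment on a log axis in each No Dox FOXA1, No Dox FOSL2 and WT FOXA1 list for lost and kept regions with FOSL2. Points are medians over regions, thick bars the quartiles and thin lines the full range. Lost regions with FOSL2 have the lower FOXA1 medians in all 4 FOXA1 lists and the higher FOSL2 medians in both FOSL2 lists.

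Lost regions with FOSL2 had weaker FOXA1 and somewhat stronger FOSL2 enrichment than kept regions with FOSL2, before any induction. In the No Dox libraries their median FOXA1 fold enrichment was 5.96 and 9.51, against 10.3 and 17.4 in kept regions with FOSL2. The quartiles in the first list were 4.66 and 7.94 in lost regions and 6.96 and 17.1 in kept ones, so the ranges overlapped. Their median FOSL2 fold enrichment was 24.8 and 6.65, against 19.2 and 5.85 in kept regions with FOSL2. All FOSL2 regions called in both No Dox libraries had medians of 19.4 and 5.6, so the lost regions lay above the usual FOSL2 level in each library. Lost regions without FOSL2 had FOXA1 medians of 5.44 and 8.52, close to those of lost regions with FOSL2.

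Ranked within their own lists, lost regions with FOSL2 stood lower for FOXA1 and higher for FOSL2 than kept ones. The percentile of a peak is its rank by fold enrichment within its list, in percent, with tied peaks given their shared middle rank. The median FOXA1 percentile was 52.5 and 72.1 in lost regions with FOSL2, against 82.1 and 89.5 in kept ones and 60.3 and 75.7 over all 6012 regions. The median FOSL2 percentile was 92 and 75, against 87.5 and 67.7 in kept ones and 87.7 and 65.3 over all FOSL2 regions called in both No Dox libraries. The requirement of a FOSL2 call in both libraries by itself thus selects high FOSL2 ranks. At or above the 90th FOXA1 percentile in both libraries were 40 lost regions with FOSL2 (5.3%) and 234 kept ones (35.2%).

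Among the 755 regions, the libraries ranked the sites alike. The Spearman correlation over regions was 0.77 between the FOXA1 lists and 0.83 between the FOSL2 lists. Whether these libraries shared cells or handling is not given in the labels. Between the mean FOXA1 and the mean FOSL2 percentile the correlation was 0.15, and among kept regions with FOSL2 it was 0.17. The ranks of the factors were thus only loosely related. These correlations are descriptions over sites that were all selected by the same calls.

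**Figure D2:**
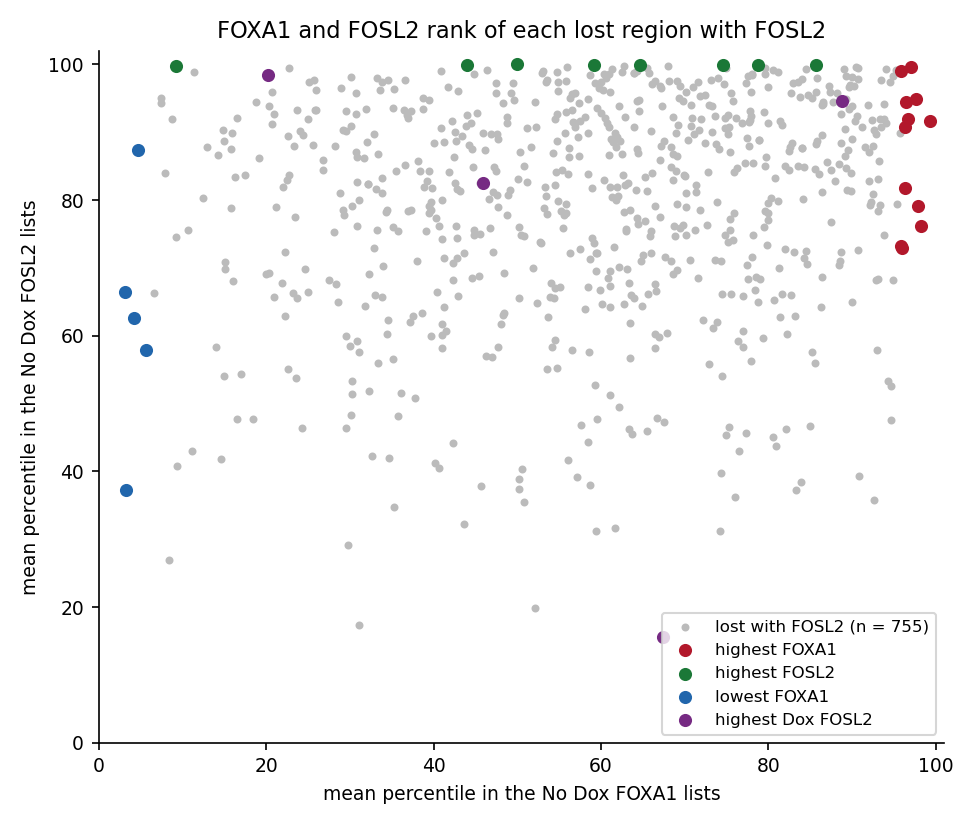
Each grey point is 1 of the 755 lost regions with FOSL2, placed by its mean percentile in the No Dox FOXA1 lists and its mean percentile in the No Dox FOSL2 lists. Coloured points are the regions named by rank or by a FOSL2 peak under doxycycline (SRGAP1, which has both, is shown by its FOSL2 rank), and the points fill the upper part of the plot at every FOXA1 rank.

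FOXA1 in WT cells was not used to choose these regions. A peak was called in both WT libraries at 753 of the 755 (99.7%, interval 99% to 100%), against 661 of 665 kept regions with FOSL2 (99.4%). Of all 6012 regions called in both No Dox libraries 99.2% were called in both WT libraries, so the lost regions lay near that background, and of all 27825 regions 57.7% were. Their median WT fold enrichment was 16.3 and 36.5, against 30.7 and 75.5 in kept regions with FOSL2. The median WT percentile was 90.1 and 94.7, a mean of 92.4 over the libraries, against 96.5 and 98.4 in kept regions with FOSL2 and 90.5 and 93.9 in lost regions without FOSL2. The order of the No Dox libraries thus recurred in cells without the construct, in both libraries, and lost regions with and without FOSL2 stood close together.

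FOXA1 and FOSL2 summits lay closer together in lost than in kept regions with FOSL2. In the 4 pairs of No Dox libraries the median distance was 48, 63, 50 and 63 bp in lost regions with FOSL2, against 76, 78, 81 and 84 bp in kept ones. The mean of the 4 medians was 56 ± 8.12 bp in lost regions and 79.8 ± 3.5 bp in kept ones (SD over the 4 pairs, which share libraries). No pair of libraries gave a lost median as long as any kept median. Summits within 50 bp of each other were found in 43.7% to 51.8% of lost regions with FOSL2 over the 4 pairs, against 32% to 37.4% of kept ones. The summit of 1 factor itself moved between libraries by a median of 15 bp for FOXA1 and 14 bp for FOSL2 in lost regions, against 7 bp and 16 bp in kept ones.

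**Figure D3:**
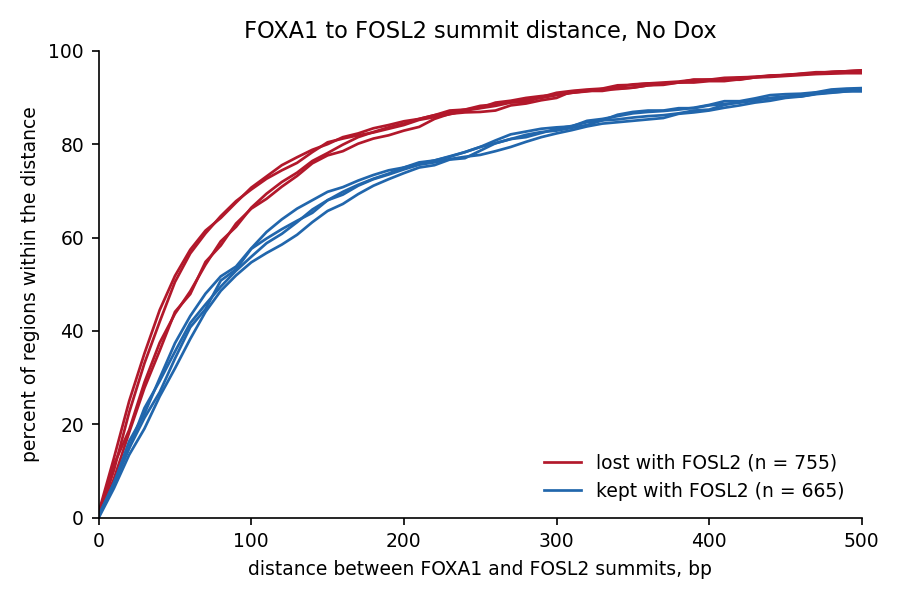
Percent of regions whose FOXA1 and FOSL2 summits lie within the distance on the x axis, in bp, with 1 line for each of the 4 pairs of No Dox lists. All 4 lines of lost regions with FOSL2 run above those of kept regions with FOSL2, with 43.7% to 51.8% against 32% to 37.4% within 50 bp.

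Kept regions with FOSL2 were also wider than lost ones. FOSL2 overlap was judged on the merged region, which in kept regions also takes in the Dox FOXA1 peaks. The merged region had a median width of 473 bp in lost and 674 bp in kept regions with FOSL2. Kept regions could thus take in FOSL2 peaks further from the FOXA1 summit by construction. The No Dox FOXA1 peak had a median width of 375 and 428 bp in lost regions with FOSL2, against 541 and 561 bp in kept ones. Within tertiles of the width in the first library, from narrow to wide, the median summit distance was 51, 58 and 68 bp in lost regions and 91.5, 67.5 and 83 bp in kept ones. With the width in the second library it was 50, 50 and 87 bp in lost regions and 94.5, 70.5 and 96.5 bp in kept ones. The distance was shorter in lost regions in all 6 strata. When every peak was replaced by 100 bp around its summit it was 45.1 bp in lost regions and 57.5 bp in kept ones. These comparisons do not remove the difference in how the regions were merged, and its part in the distances was not tested.

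The share of regions with FOSL2 that were lost fell with FOXA1 rank and, within a given FOXA1 rank, was higher where FOSL2 was stronger or nearer. By tertile of the mean No Dox FOXA1 percentile, from low to high, 63.7%, 47.8% and 21.5% were lost. By tertile of the mean FOSL2 percentile, 39.3%, 44.8% and 48.9% were lost. The FOSL2 order was the same inside each FOXA1 tertile, with 58.6%, 64.4% and 69.5% lost in the lowest, 40.1%, 47.3% and 56.5% in the middle and 13%, 21.9% and 27.3% in the highest. The intervals of neighbouring FOSL2 tertiles overlapped in each of them.

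By distance between the summits, 54.3% were lost up to 25 bp, 47.9% over 25 to 50 bp, 44.1% over 50 to 100 bp, 42.5% over 100 to 200 bp and 33.6% over 200 bp. In the middle FOXA1 tertile the share was 64.7% up to 25 bp (interval 55.4% to 73.2%) and 33.1% over 200 bp (interval 24.7% to 42.3%). In the highest it was 33.9% up to 25 bp (25.4% to 43.2%) and 14.1% over 200 bp (7.74% to 23%). In the lowest it was 70.3% up to 25 bp (58.5% to 80.3%) and 46.8% over 200 bp (38.4% to 55.4%). The nearest and the farthest class had intervals that did not overlap in each FOXA1 tertile. The classes between did not descend step by step in the lowest and the highest. Kept regions were merged with their Dox FOXA1 peaks as well, so the far classes could gain kept regions by construction. The part this plays in the shares was not tested.

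**Figure D4:**
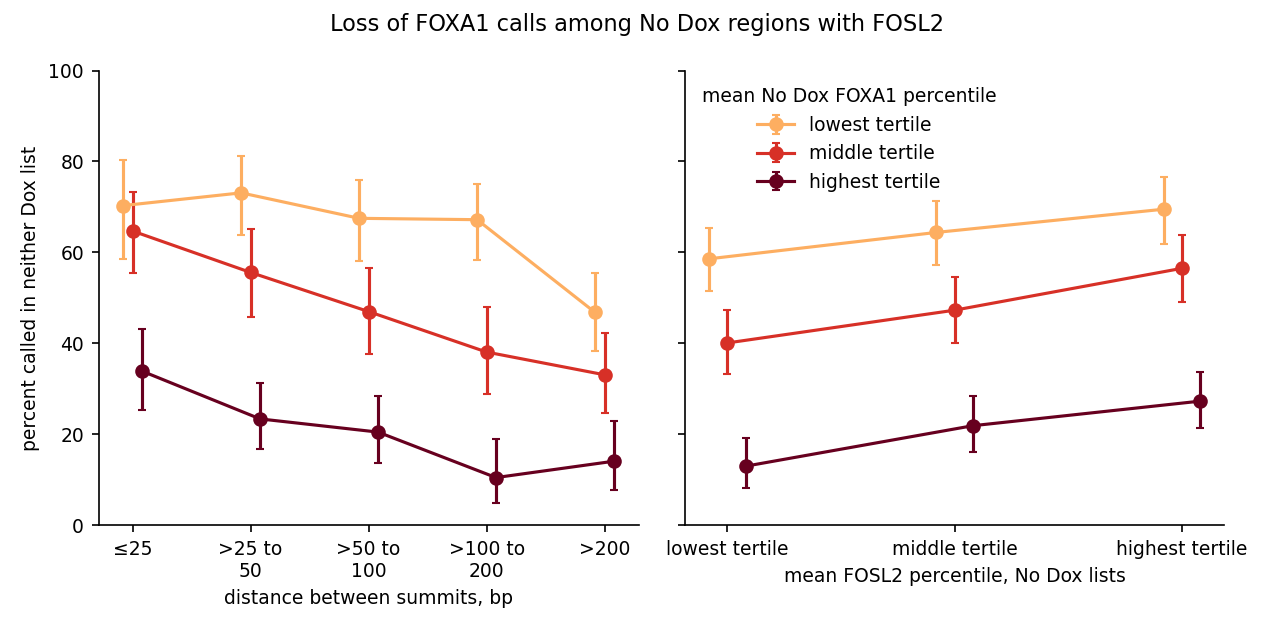
Percent of No Dox FOXA1 regions with FOSL2 that were called in neither Dox library, by distance between the summits in bp (left) and by tertile of the mean FOSL2 percentile (right), with 1 line for each tertile of the mean No Dox FOXA1 percentile and bars for the 95% exact interval. The lines keep their order, and the share is higher at up to 25 bp than over 200 bp in each.

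Coordinates of regions are those of the deposited hg38 lists. PLCB1, which encodes a phospholipase C, held the highest FOXA1 site of the 755, at chr20:8156424-8157271. Its FOXA1 fold enrichment was 32.9 and 61.7 in the No Dox libraries, at percentiles 99.1 and 99.6, and 70 and 155 in the WT libraries, and its FOXA1 and FOSL2 summits were 3 bp apart on average. No FOXA1 peak was called there in either Dox library. The site inside BCCIP, which encodes a partner of BRCA2, had 23.7 and 47.6, and one 529 kb from ZNF608, a zinc finger gene, had 22.1 and 43.3. A site inside AUTS2, a neurodevelopmental regulator, had 24.8 and 33.5, and one 232 kb from PTGER4, a prostaglandin E2 receptor gene, had 20.2 and 36.6. These 5 sites had high FOXA1 ranks in each library, at percentiles of 96 to 99.6.

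The PTGER4 site, at chr5:40446856-40447430, was also among the strongest for FOSL2, with a fold enrichment of 65.3 and 25.1, both at percentile 99.6. The other 7 sites of highest FOXA1 rank were nearest to IPMK, an inositol phosphate kinase gene, ZNF169, PDE4D, RHOB, EPHA4, PAX5 and LOC105379198. Their FOXA1 fold enrichment ran between 17.6 at EPHA4 and 21.8 at IPMK in the first No Dox library and between 29.2 at PAX5 and 38.1 at RHOB in the second. At RHOB, a small GTPase gene 7.56 kb away, the summits lay 583 bp apart, and at EPHA4, an ephrin receptor gene, 394 bp apart, so that the factors met in one merged region without sharing a summit. The ZNF169 site carried H3K9me3 in both WT libraries.

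The 8 sites with the strongest FOSL2 had FOXA1 of many ranks. Near OR5AK2, an olfactory receptor gene 55.5 kb away, at chr11:56932906-56933389, FOSL2 reached a fold enrichment of 125 and 40.4, the highest of all 755 in each library. FOXA1 there had 5.96 and 6.15 in the No Dox libraries, at percentiles 52.5 and 47.4, and 9.08 and 16.2 in WT cells. The site 421 kb from HTR7, a serotonin receptor gene, had FOSL2 at 115 and 33.7 and FOXA1 at 5.7 and 5.55. Inside PCCA, a propionyl-CoA carboxylase gene, FOSL2 had 110 and 33 and FOXA1 6.22 and 9.9. The others of highest FOSL2 rank were nearest to ANKRD55, LOC105377015, MBNL2, MTAP and SRGAP1. FOXA1 stood at percentiles 88.7 and 82.7 near ANKRD55, 84 and 73.6 near MTAP, and 74.6 and 74.5 near LOC105377015. The medians over all 6012 regions were 60.3 and 75.7. The site nearest to ANKRD55 was above the median in both libraries. Those nearest to MTAP and LOC105377015 were above it in the first alone. The sites nearest to OR5AK2, HTR7, PCCA, MBNL2 and SRGAP1 were below it in both. MBNL2, whose start is printed above, had FOSL2 at 87.6 and 27.6 and FOXA1 at 5.99 and 8.12. At SRGAP1, a GTPase-activating protein gene, FOXA1 had 3.8 and 3.2, at percentiles 14.6 and 3.92, beside FOSL2 at 71.1 and 28.6. Among these 8 sites FOXA1 ran between 3.8 and 13 in the first No Dox library.

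**Figure D5:**
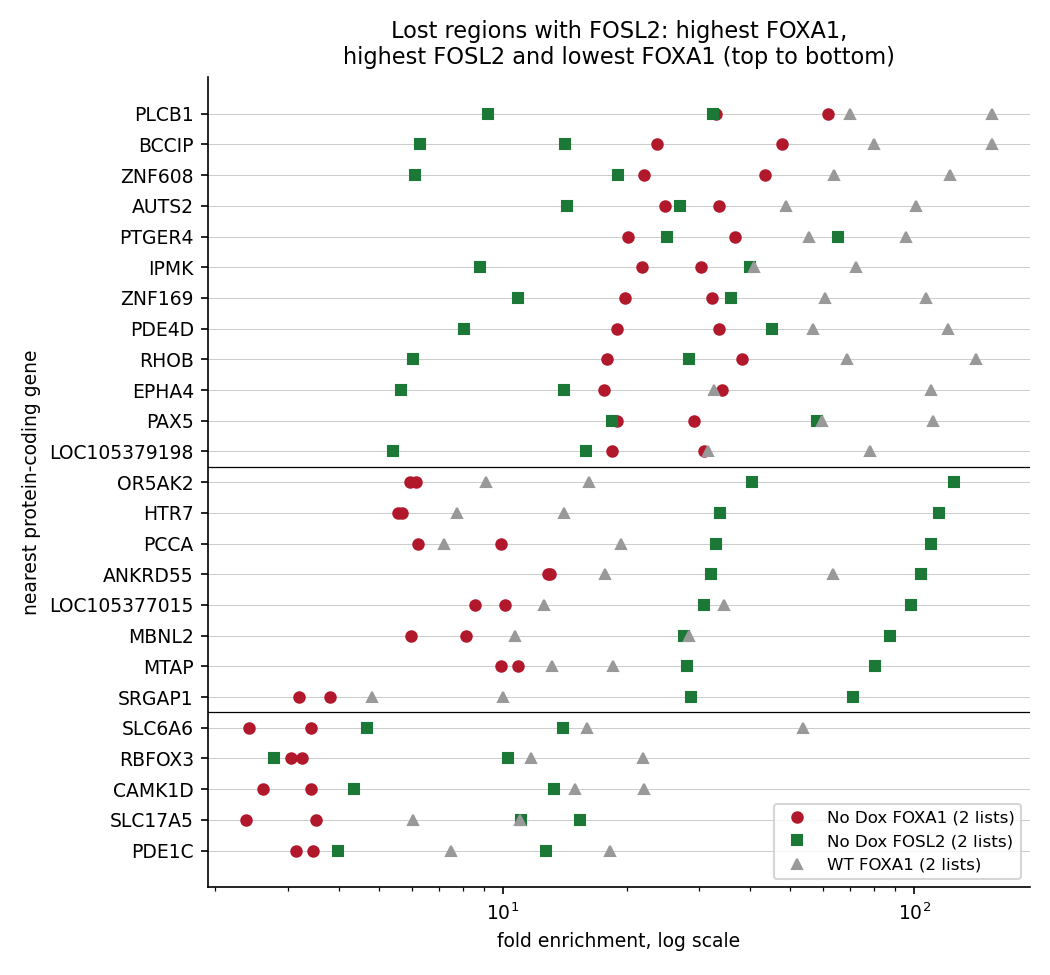
Fold enrichment on a log axis in the 2 No Dox FOXA1, 2 No Dox FOSL2 and 2 WT FOXA1 lists for lost regions with FOSL2 named by their nearest gene, in 3 blocks of highest FOXA1, highest FOSL2 and lowest FOXA1 rank. At the 8 sites of highest FOSL2 rank, No Dox FOXA1 runs between 3.2 and 13.

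The weakest FOXA1 sites were nearest to SLC6A6, the taurine transporter gene, RBFOX3, a neuronal splicing factor gene, CAMK1D, SLC17A5 and PDE1C. Inside SLC6A6, FOXA1 had a fold enrichment of 2.42 and 3.42 in the No Dox libraries, and 16 and 53.8 in the WT libraries, at percentiles 89.8 and 97. A neighbouring lost region with FOSL2, at chr3:14452040-14452423, had 3.63 and 5.42 in the No Dox libraries. It had the same 53.8 in the second WT library, so a single WT peak may cover both sites. Near SLC17A5, a lysosomal sialic acid transporter gene 12.2 kb away, it had 3.51 and 2.37 in the No Dox libraries and 6.05 and 11 in WT cells. All 5 were chosen for their low rank in the A-Fos line without doxycycline, and they spread widely in WT cells.

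Of the 12 regions with a FOSL2 peak left under doxycycline, the 5 with the highest such peak were nearest to ATP8B4, SRGAP1, PDE8B, LTBP1 and MSRB3. At SRGAP1 it was 4.8 in the first Dox library alone, and at MSRB3 4.31 in the second alone. Inside ATP8B4 FOSL2 had a fold enrichment of 6.77 in the second Dox library and no call in the first, against 53.3 and 16 in the No Dox libraries. Inside PDE8B, a cyclic AMP phosphodiesterase gene, it had 4.77 in the second Dox library alone, against 46.2 and 10.3. Inside LTBP1 it had 4.61 in the first Dox library alone, against 4.14 and 2.91 in the No Dox libraries. LTBP1 was the exception, with Dox FOSL2 as high as No Dox FOSL2 in a site of low FOSL2 rank, at percentiles 24.6 and 6.6.

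The highest-ranked kept regions with FOSL2 give the other end of the scale. The one 53.1 kb from IL6, an inflammatory cytokine gene, had FOXA1 at 110 and 162 in the No Dox libraries beside FOSL2 at 5.42 and 3.98. The one inside LTBP1 had FOXA1 at 60.9 and 126 beside FOSL2 at 16.7 and 3.49. Another inside PDE4D had FOXA1 at 57.3 and 105 beside FOSL2 at 11.1 and 4.52. These 3 kept regions stood at or above the 99.9th FOXA1 percentile in both libraries, and their FOSL2 percentiles ran between 25.8 and 84.3.

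Lost and kept regions lay side by side in some genes. PDE4D, a cyclic AMP phosphodiesterase gene, held 5 lost regions with FOSL2, the most of any gene, and 13 kept FOXA1 regions. The PDE4D site at chr5:59061171-59061767 had FOXA1 at 18.9 and 33.6 and FOSL2 at 45.2 and 8.06, while the one at chr5:60092656-60093170 had FOXA1 at 4.36 and 8.06 and FOSL2 at 47.6 and 8.99. ADGRV1, an adhesion receptor gene, PARD3, a cell polarity gene, and NSMCE2 held 3 each, and 20 genes held 2. These counts were not scaled by gene length, and PDE4D runs over chr5:58969038-60522128. ADGRV1 held no kept region. Over all 755, another lost region with FOSL2 lay within 50 kb of 88 (11.7%), and a kept region lay within 50 kb of 219 (29%). Kept regions with FOSL2 had another kept region within 50 kb in 35% (interval 31.4% to 38.8%), against 25.8% to 32.4% for the interval in lost ones.

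Most lost regions with FOSL2 lay away from gene starts. Inside a protein-coding gene were 342 of the 755 (45.3%), against 321 of 665 kept regions with FOSL2 (48.3%) and 48.3% of all 6012. Exons, introns and UTRs were not told apart. Shares around gene starts leave out chromosome 8, for which no promoter windows were used. Within 1 kb of a gene start were 26 of 702 lost regions with FOSL2 (3.7%, interval 2.43% to 5.38%), against 49 of 618 kept ones (7.93%, interval 5.92% to 10.3%). The median distance to the nearest gene start was 30.1 kb in lost and 30.9 kb in kept regions with FOSL2. The share near gene starts was thus lower in lost than in kept regions with FOSL2. It was 5.21% (interval 4.65% to 5.83%) over all regions called in both No Dox libraries, an interval that overlaps that of the lost regions with FOSL2, and 3.46% in lost regions without FOSL2.

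Repressive marks in WT cells were rare at these regions. H3K9me3 was called in both libraries at 8 (1.06%, interval 0.459% to 2.08%), against 3 (0.451%) of the kept regions with FOSL2. H3K27me3 was called in both at 2 (0.265%, interval 0.0321% to 0.954%), against 2 (0.301%) of the kept regions with FOSL2 and 50 (1.97%) of the kept regions without FOSL2. Among all 6012 regions called in both No Dox libraries the shares were 1.25% for H3K9me3, near that of the lost regions with FOSL2, and 1.13% (interval 0.879% to 1.43%) for H3K27me3. Among all 27825 regions they were 6.3% and 8.32%.

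Lost regions with FOSL2 were counted near genes of 11 lists, with 50 kb as the limit. A lost region with FOSL2 lay within 50 kb of 807 of 19974 protein-coding genes (4.04%), and any FOXA1 region called in both No Dox libraries lay within 50 kb of 22.6%. Of the 17 TGF-beta pathway genes 4 had a lost region with FOSL2, and 8 had any No Dox FOXA1 region. At a limit of 10 kb 2 of the 17 had one, as did 2 of the 12 genes in each of the cell cycle and the YAP and TEAD lists. At 100 kb it was 4 of the 17, against 4 of 18 MAPK and EGFR pathway genes and 3 of 14 AP-1 subunit genes. It was 3 of the 12 cell cycle genes and 2 of the 12 YAP and TEAD genes. The share of all protein-coding genes was not computed at 10 kb or 100 kb, so counts at these limits have no background beside them. The 4 TGF-beta pathway genes at 50 kb were LTBP1 with 2, SMAD3, which transmits the signal, TGFBR2 and the ligand gene TGFB2. At TGFBR2 FOXA1 had a fold enrichment of 4.24 and 7.81 in the No Dox libraries and 37.4 and 95 in WT cells, beside FOSL2 at 8.54 and 2.51. Near SMAD3 FOXA1 had 6.42 and 6.54, and near TGFB2 it had 3.33 and 11.9. All 4 also had at least 2 kept FOXA1 regions within 50 kb.

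Of the 18 MAPK and EGFR pathway genes 10 had any No Dox FOXA1 region and 2 had a lost region with FOSL2, EGFR and DUSP4, a phosphatase gene of that pathway. The DUSP4 site lay 43.1 kb away and was nearer to KIF13B. It was weak for FOXA1, at 2.64 and 5.02 in the No Dox libraries and at percentiles 0.269 and 31.5. EGFR had 2, one 32.9 kb outside the gene and one inside it at chr7:55132816-55133157. The site outside had FOXA1 at 5.57 and 8.19 and FOSL2 at 49.7 and 10.5, and the site inside had FOXA1 at 5.11 and 5.67 and FOSL2 at 32.6 and 7.63. EGFR also had 2 kept regions within 50 kb, one of which holds the LOC105375284 sequence above.

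Of the 12 cell cycle genes 3 had any No Dox FOXA1 region, and CCND1 and CDK6 had a lost region with FOSL2. The site 0.209 kb from CCND1, the cyclin D1 gene, at chr11:69654684-69655361, had FOXA1 at 4.93 and 15 in the No Dox libraries and at 596 and 104 in WT cells, where the libraries were thus far apart. Inside CDK6, its kinase partner, FOXA1 had 5.96 and 4.66 beside FOSL2 at 44.8 and 9.4. Of the 12 YAP and TEAD target genes 9 had any No Dox FOXA1 region, and AMOTL1 and YAP1 had a lost region with FOSL2. The AMOTL1 site, 3.36 kb away, was strong for both factors, with FOXA1 at 17.1 and 34.2 and FOSL2 at 38.6 and 7.92, while inside YAP1 FOXA1 had 4.41 and 5.16.

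Among 14 AP-1 subunit genes BATF alone had a lost region with FOSL2 within 50 kb, with FOXA1 at 7.31 and 13.9. The nearest to FOSL2 itself lay 294 kb away, the nearest to FOS 254 kb, the nearest to JUN 422 kb and the nearest to FOXA1 1498 kb. Among 15 FOXA and lung epithelial factor genes EHF, an epithelial ETS factor gene, had one 17.7 kb away, with FOXA1 at 7.52 and 16.9 and FOSL2 at 54.2 and 15.8. None lay within 50 kb of any of 21 matrix, protease and adhesion genes, of which 10 had any No Dox FOXA1 region. Nor did one lie within 50 kb of 16 cytokine and prostaglandin genes, of which 12 had a No Dox FOXA1 region. The same held for 14 housekeeping genes, 10 blood markers and 12 fibroblast and endothelial markers. At 100 kb, 1 of the 16 cytokine and prostaglandin genes and 1 of the 12 fibroblast and endothelial markers had one. Just outside the 50 kb limit, a lost region with FOSL2 lay 58.9 kb from IL6 and another 58.3 kb from KDR. The IL6 site had FOXA1 at 5.72 and 13.3 in the No Dox libraries. With lists this short, a count of 0 lies near the 4.04% of all genes, and the counts describe these genes only.

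At the edges of the selection, the lost region with the shortest FOSL2 overlap shared 30 bp with a FOSL2 region, 189 kb from SLC38A2, and the median overlap was 435 bp. Of the lost regions just outside, one lay 25 bp from a FOSL2 region and 768 kb from NR2F2, a nuclear receptor gene. Another, inside MAGI3, lay 26 bp from a FOSL2 region. The lowest No Dox −log10 q among the 755 was 1.61, inside PDE4D, and 1.64 inside NRP1. Regions left out because of a call in 1 Dox library had −log10 q there as low as 1.44. This value was found inside APOH and 1171 kb from GOT2, beside 1.61 in a further PDE4D site.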

How the data were processed

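FOXA1, FOSL2, H3K9me3 and H3K27me3 were profiled by ChIP-seq in A549 cells, and 14 peak lists were analysed, 1 per library. Inputs were not analysed here. Fixation was 10 min in 1% formaldehyde and reads were 50 bp pairs, per the labels' protocols. The deposited lists hold, for each peak, a linear fold enrichment (a ratio) and a −log10 q-value, both from the authors' peak caller. The build was hg38, and MACS2, deepTools, SAMtools 1.8, BWA 2.2.1, fastp 0.23.2 and DRAGEN are named, with no settings, in the submitters' processing notes. No read numbers come with the lists, so depth and the precision it gives are unknown.

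Regions were merged and classed in Python 3.11.15 with NumPy 2.4.6 and SciPy 1.17.1, and the functions were tested on simulated data. The strongest peak of each list in a region gave its value and summit. Genes came from a RefSeq table of GRCh38.p14 with 19974 protein-coding genes and without strand, and promoters from a RefSeq table of 34961 windows. A genome sequence was not used here, so motifs were read in promoter windows only. The regions, gene lists and alternatives were chosen with earlier results of these data known. Named were the 12 regions of highest and 5 of lowest mean FOXA1 percentile, the 8 of highest FOSL2 percentile, the 4 with the highest Dox FOSL2 peak among those not yet named (SRGAP1 already was), those nearest to FOXA1, FOSL2, FOS and JUN, and up to 4 per gene list, each by its nearest protein-coding gene. The TGFBR2 site, which also overlaps LOC105377015, is called TGFBR2, and the printed sequences and the other kept or repeated sites were chosen after their values were seen. No test was made, since regions are not replicates and the calls chose them.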

Additional observations from a re-analysis of the deposited data

How the results depend on the processing

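The number of lost regions with FOSL2, 755, was 741 to 1683 when each of the 8 A-Fos libraries was left out in turn. It was 388 in the upper part of each list by fold enrichment and 431 with a −log10 q of at least 10 in the No Dox FOXA1 lists alone, an alternative chosen after seeing the data. It was 658 to 756 with lists of equal length, a −log10 q of at least 3, 50% of the region under FOSL2, 100 bp around summits or all contigs. The share called in both WT libraries, 99.7%, was 96.6% to 100% over the libraries left out, WT ones included. It was 100% in the upper part of the lists, with lists of equal length and with the −log10 q of 10, and 97.1% with 100 bp around summits. The mean WT percentile, 92.4, was 86.3 to 94.7 over the libraries left out and 96 in the upper part of the lists. The summit distance, 56 bp, was 51.5 to 61 bp over the libraries left out, 42.6 bp in the upper part of the lists, 45.1 bp with 100 bp around summits and 45 bp with the −log10 q of 10. It was shorter than in kept regions with FOSL2 in all 15 settings, each of which merged kept regions with their Dox peaks as well. In 2 of these settings a Dox FOSL2 library was left out, which enters only the merging of FOSL2 regions, and the values were unchanged. The share inside or within 1 kb of a gene, 45.8%, was 45.3% at 0 kb, 52.6% at 10 kb and 72.7% at 50 kb. The cause of these shifts was not tested. The AP-1 share around every summit, with its alternatives, was not run, as no genome sequence was used. No paired analysis was made, as no result comes from a test. Whether Dox and No Dox libraries of the same replicate number were paired is not given in the labels. Depth is unknown, so a lost call can be a peak just under the threshold, and 2 libraries a group limit all values.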

Other observations

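The 755 lost regions with FOSL2 were found on chromosomes 1 to 22 and X. Their number was highest on chromosome 1, with 60 of 502 regions called in both No Dox libraries (12%). Their share was 7.34% on chromosome 4 (interval 4.47% to 11.2%) and 16.2% on chromosome 18 (interval 9.53% to 24.9%), the lowest and the highest, with overlapping intervals.

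Kept regions with FOSL2 had a median percentile of 81 and 81.5 in the Dox FOXA1 lists, against 82.1 and 89.5 in the No Dox lists. Kept regions without FOSL2 had 83.1 and 87.3 in the Dox lists, against 67.1 and 77.2 in the No Dox lists. These percentiles come from lists of different lengths, and kept regions were chosen by calls in the Dox lists. They therefore cannot tell whether binding changed.

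A lost region with FOSL2 14.3 kb from ERRFI1, a feedback inhibitor gene of EGFR that was not in the gene lists, had FOXA1 at 9.07 and 10.2 and FOSL2 at 34.6 and 9.26, with the summits 15 bp apart. It was picked after its values were seen.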
